A study of Mus musculus with 24 samples.

Results

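The genes described here are the chromosomal neighbours of Tatdn1, the gene disrupted in the knockout mice. They were taken by position on mouse chromosome 15, apart from the exclusions named below, and with earlier results of these data known. Every gene-level probe set with a single gene symbol was taken whose gene start lies within 10 Mb of the start of Tatdn1. Starts were read as the lower coordinate in GRCm38, and Tatdn1 spans 58890153 to 58933756 on chromosome 15. Tatdn1 lies on the minus strand, so this coordinate, from which all distances were measured, is the end opposite its transcription start. Tatdn1 itself, Myc, Sntb1, Ndufb9 and symbols starting with Col or Kcn were left out, 7 probe sets in all, which leaves 64 genes with 1 probe set each among the 22206 gene-level probe sets of the array. Of these, 34 lie on the lower-coordinate side of Tatdn1 and 30 on the higher-coordinate side, and 60 are annotated as protein coding. Although the window reaches 10 Mb, the outermost of the 64 genes were Eif3h, 7.10 Mb below, and Zfat, 9.19 Mb above. The nearest probe sets outside were Csmd3, 11.31 Mb below, and Khdrbs3, 10.04 Mb above.

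Cardiac ventricle and brain cortex of Tatdn1-/- and Tatdn1+/+ mice, aged 2 months and on a C57BL/6J background, were each read on Mouse Clariom S HT arrays, which measure the expression of genes by short probes. Each genotype was represented by 3 males and 3 females, with 1 array per tissue and mouse, so that every comparison of genotypes within a tissue is 6 against 6 mice. The Tatdn1-/- mice lack exon 3 in the whole body. According to the methods, the exon had been flanked by loxP sites in embryonic stem cells, the neomycin cassette had been taken out with a FLPe line, and the CAG-Cre line used for the deletion had been bred out, so that a single loxP site stands in place of the exon and mice of neither genotype carry Cre. The paper obtained mice of both genotypes by crossing heterozygotes with each other. Whether the mice on the arrays shared litters or parents was not stated. The strain of the stem cells was not stated. The codes of Tatdn1-/- mice start with M77, M78 or F77 and those of Tatdn1+/+ mice with M75 or F76. What the numbers mark is unknown, and since no number occurs in both genotypes it cannot be told apart from genotype.

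Genes that lie beside a targeted gene are inherited together with the targeted allele, because recombination seldom separates close loci. For that reason they are commonly looked at in a knockout line: the stretch of chromosome around the target can carry the alleles of the stem cells, and a site left by a cassette or by loxP can alter the activity of a neighbour. The neighbours of Tatdn1 themselves do unrelated work, from the muscle ubiquitin ligase Fbxo32 and the cholesterol enzyme Sqle to the cohesin subunit Rad21 and the gasdermin C cluster.

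The target was checked first. Tatdn1 read 4.97, 5.40 and 6.03 (lowest, median and highest log2 value) in Tatdn1-/- ventricles, against 6.53, 6.87 and 7.15 in Tatdn1+/+ ventricles, a difference of -1.36 ± 0.18 (log2, ± SE; limma, adjusted p = 0.0156). In cortex it read 4.44, 5.11 and 5.31 in Tatdn1-/- mice and 5.29, 5.81 and 6.15 in Tatdn1+/+ mice, a difference of -0.78 ± 0.17 (limma, unadjusted p = 0.000324, adjusted p = 0.168). The groups were separate in ventricle, whereas in cortex 1 Tatdn1-/- array overlapped with the lowest Tatdn1+/+ array. Where the probes of Tatdn1 lie relative to exon 3 was not looked up, since no probe positions were used here.

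Tissue identity was clear: 8 cardiomyocyte markers averaged 10.86 to 10.99 on the Tatdn1-/- and 10.81 to 11.00 on the Tatdn1+/+ ventricle arrays, and 5 markers of cortical excitatory neurons averaged 9.98 to 10.23 on the Tatdn1-/- and 9.94 to 10.21 on the Tatdn1+/+ cortex arrays. Other markers were less even, where 54.1% of all probe sets were higher in Tatdn1-/- ventricles and 46.1% in Tatdn1-/- cortices. In ventricle, 9 of 13 neuronal markers were higher in Tatdn1-/- mice, 4 of them with an unadjusted p under 0.05. The mean log2 level of the 13 was highest in the Tatdn1-/- male M78-1, with the other Tatdn1-/- arrays at 2.92 to 3.30 and the Tatdn1+/+ arrays at 2.77 to 3.19. The 6 atrial markers all had a positive difference in ventricle (median 0.53), 0 of them with an unadjusted p under 0.05, with the Tatdn1-/- female F77-2 at 7.21 and the next Tatdn1-/- array at 4.19, and so had the 5 fibroblast markers (median 0.42), 1 of them with an unadjusted p under 0.05. In cortex, all 10 immediate early genes had a negative difference (median -0.51; mean level 5.74 to 7.10 on Tatdn1-/- and 5.68 to 7.50 on Tatdn1+/+ arrays), 3 of them with an unadjusted p under 0.05. Of the oligodendrocyte markers in cortex, 8 of 9 had a positive difference (median 0.29; mean level 7.40 to 7.90 on Tatdn1-/- and 7.15 to 7.98 on Tatdn1+/+ arrays), 2 of them with an unadjusted p under 0.05. All 7 striatal markers had one too (median 0.14; mean level 8.04 to 8.42 on Tatdn1-/- and 7.48 to 8.43 on Tatdn1+/+ arrays), 1 of them with an unadjusted p under 0.05. The cortex array of the Tatdn1-/- male M78-1 stood apart, with the lowest median of all cortex arrays (3.45) and the highest mean of the background controls (2.08; the other 11 cortex arrays lay between 1.54 and 1.84). The part of these differences in the values of the neighbours was not tested, and in whole tissue fewer cells of a type and less RNA per cell cannot be told apart.

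No neighbour reached an adjusted p under 0.05 between genotypes, in ventricle or in cortex (limma, Benjamini-Hochberg over 22206 probe sets), where 0.0135% of all probe sets passed in ventricle and 0.00901% in cortex. The smallest adjusted p among them was 0.428 in ventricle and 0.357 in cortex. At an unadjusted p under 0.05, 9 of the 64 neighbours (14.1%) differed in ventricle, against 8.46% of all probe sets, and 7 (10.9%) in cortex, against 6.98%. In ventricle 6 of the 9 were higher in Tatdn1-/- mice, where 5.08% of all probe sets were, and 3 were lower, where 3.37% were. In cortex all 7 were lower in Tatdn1-/- mice, where 4.59% of all probe sets were lower and 2.39% higher. No neighbour had groups that did not overlap in either tissue, whereas 0.59% of all probe sets had in ventricle and 0.576% in cortex. All values that follow are differences on the log2 scale, Tatdn1-/- minus Tatdn1+/+, on which 1 unit is a 2-fold difference, and the p-values named unadjusted do not take account of the number of genes looked at.

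**Figure D1:**
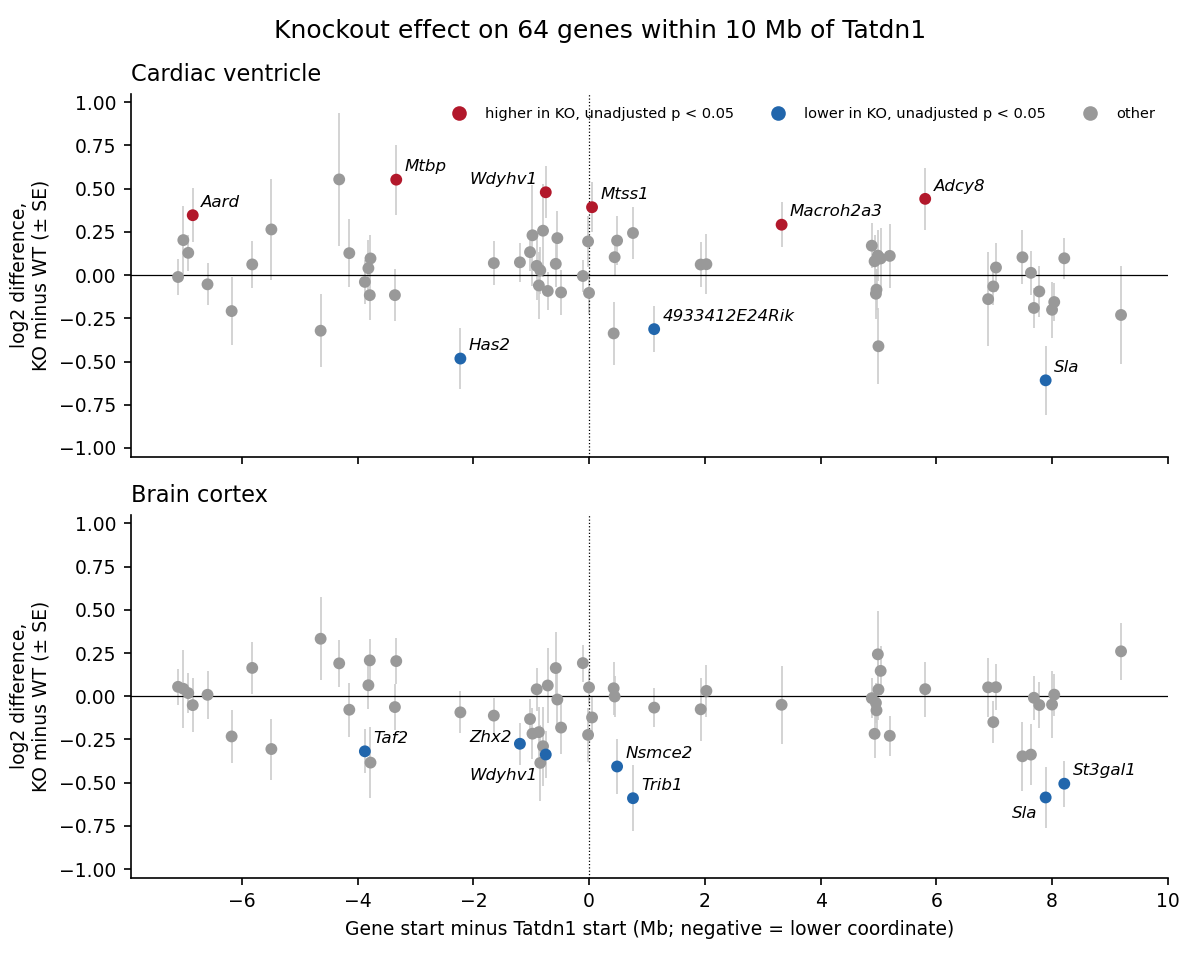
Difference between Tatdn1-/- (KO) and Tatdn1+/+ (WT) mice in log2 units, KO minus WT, for each of the 64 neighbours by the distance of its start from the start of Tatdn1 in Mb, in ventricle (top) and cortex (bottom); points are limma estimates, bars are ± SE, n = 6 mice a group. Coloured points have an unadjusted p under 0.05: 6 higher and 3 lower in ventricle, 7 lower in cortex, spread from 6.85 Mb below Tatdn1 to 8.21 Mb above it.

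The size of the differences was then set against the distance from Tatdn1. Across the 64 neighbours, which share the same 12 mice, the Spearman correlation of the absolute difference with absolute distance was -0.02 in ventricle and -0.08 in cortex. On the lower side it was 0.11 in ventricle and -0.17 in cortex (34 genes), and on the higher side -0.14 in ventricle and 0.14 in cortex (30 genes). The signed difference in ventricle tended downwards with distance on the higher side, with a correlation of -0.40, and the cortex gave 0.06 for the same 30 genes. These correlations are descriptions across genes, which are no replicates.

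By bins of distance, the 18 genes within 1 Mb had a median absolute difference of 0.15 in ventricle and 0.19 in cortex, whereas all probe sets together had 0.13 and 0.11 in the same tissues. Of these 18 genes, 2 (11.1%) had an unadjusted p under 0.05 in ventricle and 3 (16.7%) in cortex. Between 1 and 2.5 Mb it was 2 of 7 genes in ventricle and 1 of 7 in cortex, between 2.5 and 5 Mb 2 of 15 and 1 of 15, and between 5 and 10 Mb 3 of 24 and 2 of 24. The median absolute difference of the 24 outermost genes was 0.13 in ventricle and 0.05 in cortex. The part of the cortex array of M78-1, which stood apart, in these medians was not tested. Without that mouse, the cortex difference of Zhx1, within 1 Mb, went from -0.39 to -0.14 and that of Wdyhv1 from -0.34 to -0.25. Nsmce2 went from -0.41 to -0.38 and Trib1 from -0.59 to -0.68. The 644 other located probe sets of chromosome 15 had an unadjusted p under 0.05 for 6.83% in ventricle and 6.52% in cortex, and all probe sets for 8.46% and 6.98%.

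The counts were also read by side. On the lower side 4 of 34 genes (11.8%) had an unadjusted p under 0.05 in ventricle and 3 (8.82%) in cortex. On the higher side it was 5 of 30 (16.7%) in ventricle and 4 (13.3%) in cortex. Over all probe sets the share was 8.46% in ventricle and 6.98% in cortex. The side medians of the signed difference were 0.06 and 0.05 in ventricle, for the lower and the higher side, and -0.06 and -0.05 in cortex. Over all probe sets the median was 0.02 in ventricle and -0.02 in cortex. With arrays centred on their median, the median of the 64 neighbours went from 0.06 to 0.03 in ventricle and from -0.05 to -0.003 in cortex. With quantile normalization within the tissue it was 0.04 in ventricle and -0.05 in cortex. The median absolute difference within 1 Mb was 0.10 on the lower and 0.24 on the higher side in ventricle, and 0.19 and 0.12 in cortex, so that the side with the larger value was not the same in the 2 tissues. The higher side holds only 5 genes within 1 Mb.

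**Figure D2:**
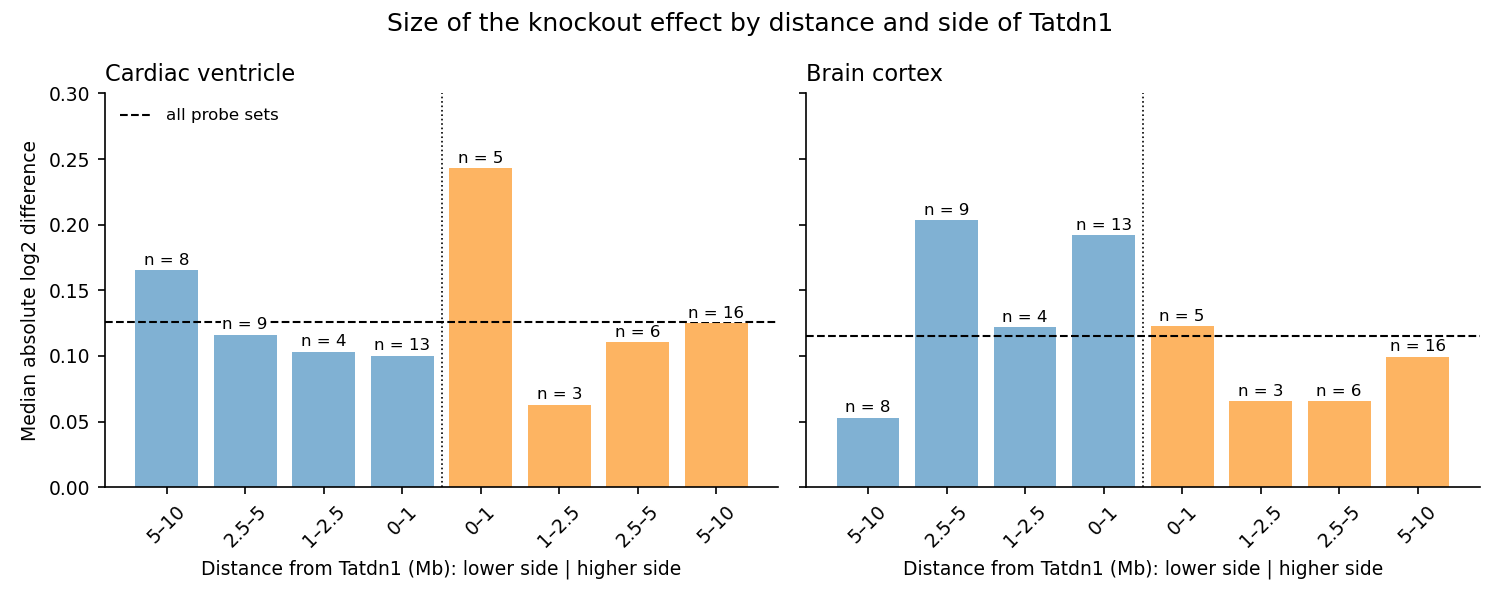
Median absolute log2 difference between Tatdn1-/- and Tatdn1+/+ mice in ventricle (left) and cortex (right) for the neighbours in each bin of distance, lower-coordinate side in blue and higher-coordinate side in orange, with the number of genes above each bar; the dashed line is the median over all 22206 probe sets. The bin of 5 genes within 1 Mb on the higher side is the highest in ventricle (0.24) but not in cortex (0.12), where the 9 genes 2.5 to 5 Mb below reach 0.20.

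The closest neighbours were read one by one. Rnf139, an ubiquitin ligase of the endoplasmic reticulum, has its lower coordinate 0.924 kb below that of Tatdn1 and shares 12238 bases with it. It read 6.99, 7.04 and 7.15 in Tatdn1-/- ventricles, against 6.86, 7.18 and 7.54 in Tatdn1+/+ ventricles, with a difference of -0.10 ± 0.12. In cortex it read 5.99, 6.10 and 6.14 in Tatdn1-/- mice and 5.87, 6.05 and 6.13 in Tatdn1+/+ mice, with a difference of 0.05 ± 0.10. The groups overlapped in both tissues while Tatdn1 itself was lower, although it is unknown whether its probes lie within the shared stretch.

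Trmt12, a tRNA-modifying enzyme of wybutosine synthesis that starts 17.5 kb below, had a difference of 0.19 ± 0.15 in ventricle and -0.22 ± 0.16 in cortex. Tmem65, a membrane protein of the cardiac intercalated disc and of mitochondria 108 kb below, gave -0.01 ± 0.09 in ventricle, the smallest difference and the smallest SE of the genes within 1 Mb. In cortex Tmem65 read 7.68, 7.76 and 7.83 in Tatdn1-/- mice, against 7.42, 7.50 and 7.84 in Tatdn1+/+ mice. That is a difference of 0.19 ± 0.11, with 4 of the 6 Tatdn1+/+ arrays below all Tatdn1-/- arrays. The limma fit gave an unadjusted p of 0.0911 and the exact permutation test, two-sided, 0.039.

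Mtss1, a scaffold protein that binds actin and bends membranes, is the nearest of the 64 neighbours above Tatdn1 (58941234 to 59083956). The upper coordinate of Tatdn1 is 58933756, and between lower coordinates Mtss1 lies 51.1 kb away. It read 5.52, 5.93 and 6.30 in Tatdn1-/- ventricles, against 5.14, 5.57 and 5.75 in Tatdn1+/+ ventricles. Of the 6 Tatdn1-/- arrays, 4 lay above all Tatdn1+/+ arrays. The difference of 0.39 ± 0.15 had an unadjusted p of 0.0166 (limma, adjusted p = 0.492; exact permutation p = 0.0281, two-sided). In cortex Mtss1 gave -0.12 ± 0.13.

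Further above, Sqle, the squalene epoxidase of cholesterol synthesis, gave -0.34 ± 0.18 in ventricle, where it lies near background, and 0.05 ± 0.15 in cortex, where it was well expressed. Washc5, a subunit of the endosomal WASH complex, gave 0.10 ± 0.10 in ventricle and 0.00 ± 0.12 in cortex. Nsmce2 and Trib1, the remaining genes of the higher side within 1 Mb, were among the 7 that were lower in cortex and are described there.

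On the lower side, Fbxo32, the muscle ubiquitin ligase also called atrogin-1, gave -0.09 ± 0.11 in ventricle and 0.06 ± 0.21 in cortex, and Klhl38, a kelch-like protein, 0.06 ± 0.13 and 0.16 ± 0.21. The other lower-side genes within 1 Mb, Tbc1d31, Fam83a, 9130401M01Rik, Zhx1, Atad2, Anxa13 and Fam91a1, lay between -0.10 and 0.26 in ventricle and between -0.39 and 0.04 in cortex, and none had an unadjusted p under 0.05. Zhx1, a zinc finger and homeobox protein, was the lowest of them in cortex at -0.39 ± 0.22, with the array of M78-1 at 5.46 and the other 5 Tatdn1-/- arrays between 6.78 and 7.08. Without this mouse its difference was -0.14. The 95% intervals of the 18 genes within 1 Mb ran from -0.72 to 0.85 in ventricle and from -0.99 to 0.60 in cortex.

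**Figure D3:**
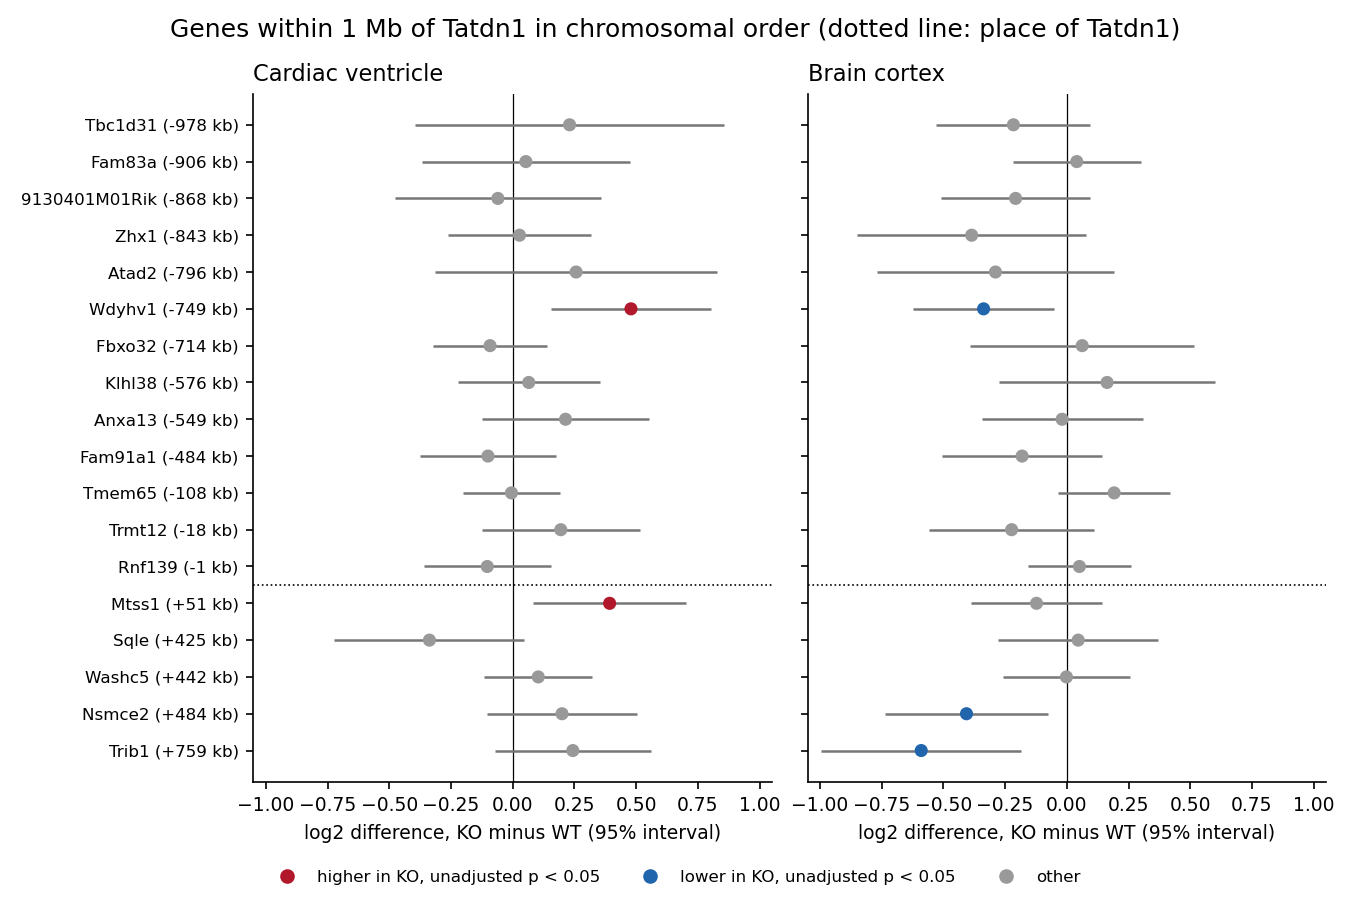
The 18 neighbours within 1 Mb of Tatdn1 in chromosomal order from the lowest coordinate (top) to the highest (bottom), with the distance of their start in kb; points are the log2 difference, Tatdn1-/- (KO) minus Tatdn1+/+ (WT), in ventricle (left) and cortex (right), and bars its 95% interval, n = 6 mice a group. Wdyhv1 and Mtss1 lie above 0 in ventricle, and Wdyhv1, Nsmce2 and Trib1 below 0 in cortex, with intervals that leave out 0.

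In ventricle, the neighbours that were higher in Tatdn1-/- mice at an unadjusted p under 0.05 were Wdyhv1, Mtbp, Mtss1, Adcy8, Aard and Macroh2a3. Wdyhv1 (58141335 to 58158654), the amidase that acts on N-terminal glutamine in the N-degron pathway, read 5.27, 5.65 and 5.84 in Tatdn1-/- ventricles, against 4.72, 5.08 and 5.57 in Tatdn1+/+ ventricles. Of the 6 arrays in each genotype, 4 Tatdn1-/- arrays lay above all Tatdn1+/+ arrays, and 4 Tatdn1+/+ arrays below all Tatdn1-/- arrays. Its difference of 0.48 ± 0.15 had the smallest p among the neighbours in ventricle (limma, unadjusted p = 0.00654, adjusted p = 0.428; exact permutation p = 0.0152).

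Mtbp, a partner of MDM2 that also acts in the start of DNA replication, lies 3.33 Mb below Tatdn1. It read 3.82, 4.33 and 4.88 in Tatdn1-/- ventricles, against 3.32, 3.75 and 4.39 in Tatdn1+/+ ventricles, a difference of 0.55 ± 0.20 (limma, unadjusted p = 0.0156). The groups overlapped, with 2 Tatdn1-/- arrays above all Tatdn1+/+ arrays. Macroh2a3, by its name a gene of the macroH2A histone family, 3.33 Mb above, gave 0.29 ± 0.13 (unadjusted p = 0.0414), with the highest Tatdn1-/- array at 2.92 and the highest Tatdn1+/+ array at 2.63.

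Adcy8, a calcium-stimulated adenylyl cyclase of the brain, read 1.90, 2.29 and 2.74 in Tatdn1-/- ventricles, against 1.38, 1.82 and 2.21 in Tatdn1+/+ ventricles, a difference of 0.44 ± 0.18 (limma, unadjusted p = 0.0258). These levels are near those of the background controls, whose highest array mean in ventricle was 2.10. Its highest Tatdn1-/- array was M78-0 and its lowest M78-1, the array with the most neuronal marker signal. A relation of Adcy8 to the neuronal markers was not tested. Mal2, a raft protein that the cortex expresses strongly, differed by 0.55 ± 0.39 in ventricle, with M78-1 the highest at 3.84, and by 0.25 without that mouse. Aard, a small gene of little known function, was near background too, with 0.35 ± 0.15 (unadjusted p = 0.0413). Without M78-1, its highest array, the difference was 0.24 (unadjusted p = 0.109).

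The neighbours that were lower in Tatdn1-/- ventricles were Sla, Has2 and 4933412E24Rik. Sla (66780819 to 66831829), the Src-like adaptor that dampens antigen receptor signalling in lymphocytes, read 2.99, 3.32 and 3.53 in Tatdn1-/- ventricles, against 3.29, 3.90 and 4.49 in Tatdn1+/+ ventricles. The lowest Tatdn1-/- arrays, 3 of 6, lay below all Tatdn1+/+ arrays, and 4 Tatdn1+/+ arrays above all Tatdn1-/- arrays. The difference was -0.61 ± 0.20 (limma, unadjusted p = 0.00839, adjusted p = 0.442; exact permutation p = 0.026). All of Sla lies within the span of Tg, the thyroglobulin gene, which differed by -0.09 ± 0.15 in ventricle and -0.05 ± 0.13 in cortex.

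Has2, a hyaluronan synthase, read 1.06, 1.26 and 1.56 in Tatdn1-/- ventricles, against 1.26, 1.72 and 2.44 in Tatdn1+/+ ventricles, a difference of -0.48 ± 0.18 (limma, unadjusted p = 0.0158). The highest of these arrays, the Tatdn1+/+ male M75-0, was also the array with the highest background mean in ventricle. The gene 4933412E24Rik gave -0.31 ± 0.13 (unadjusted p = 0.0343). Both lie near background. Over the ventricle, 21 of the 64 neighbours were near background, that is, with a mean over 12 arrays no higher than the highest array mean of the 23 background controls. These 21 hold 4 of the 9 genes (Adcy8, Aard, Has2 and 4933412E24Rik), or 19.0%, against 8.46% of all probe sets. Of the other 43 neighbours, 5 (11.6%) had an unadjusted p under 0.05, against 9.67% of all probe sets above background.

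In cortex, the 7 neighbours with an unadjusted p under 0.05, all lower in Tatdn1-/- mice, were St3gal1, Sla, Trib1, Nsmce2, Wdyhv1, Taf2 and Zhx2. All were above background, where the 44 neighbours above background had 15.9%, and all probe sets above background 9.14%. St3gal1 (67102875 to 67176946), which adds sialic acid to O-glycans, read 4.74, 4.92 and 5.26 in Tatdn1-/- cortices, against 5.03, 5.48 and 5.67 in Tatdn1+/+ cortices. The overlap rested on 1 Tatdn1+/+ array, since 5 of the 6 lay above all Tatdn1-/- arrays. The difference of -0.51 ± 0.13 had the smallest p among the neighbours (limma, unadjusted p = 0.00154, adjusted p = 0.357; exact permutation p = 0.00866).

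Sla was lower in cortex too, with 4.81, 5.14 and 5.45 in Tatdn1-/- and 5.13, 5.86 and 6.16 in Tatdn1+/+ cortices. That is a difference of -0.59 ± 0.18 (limma, unadjusted p = 0.00455, adjusted p = 0.437). Here 3 Tatdn1-/- arrays lay below all Tatdn1+/+ arrays. Trib1, a pseudokinase that brings C/EBP factors to the COP1 ubiquitin ligase, read 4.42, 4.59 and 5.12 in Tatdn1-/- cortices, against 4.49, 5.43 and 5.66 in Tatdn1+/+ cortices. With 4 of 6 Tatdn1+/+ arrays above all Tatdn1-/- arrays, its difference was -0.59 ± 0.19 (unadjusted p = 0.00695, adjusted p = 0.475).

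Nsmce2, the SUMO ligase of the SMC5/6 complex of genome maintenance, read 4.94, 5.10 and 5.37 in Tatdn1-/- cortices, against 5.32, 5.44 and 6.28 in Tatdn1+/+ cortices, a difference of -0.41 ± 0.16 (limma, unadjusted p = 0.0193). The highest value was that of the Tatdn1+/+ female F76-1, and without that mouse the difference was -0.26. Wdyhv1 read 4.37, 4.87 and 5.08 in Tatdn1-/- cortices, against 4.91, 5.10 and 5.44 in Tatdn1+/+ cortices, a difference of -0.34 ± 0.13 (unadjusted p = 0.023). Its lowest array was again M78-1, without which the difference was -0.25 (unadjusted p = 0.0522).

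Taf2, a subunit of the general transcription factor TFIID, differed by -0.32 ± 0.13 in cortex (limma, unadjusted p = 0.0238; exact permutation p = 0.00649), with 4 of 6 Tatdn1-/- arrays below all Tatdn1+/+ arrays and 5 of 6 Tatdn1+/+ arrays above all Tatdn1-/- arrays. Without M78-1 it was -0.24 (unadjusted p = 0.0536). Zhx2, a zinc finger and homeobox repressor, differed by -0.27 ± 0.12 (unadjusted p = 0.0363). With 1 mouse left out in turn its p stayed under 0.05 in 5 of 12 fits, and the highest was 0.081, without the Tatdn1-/- female F77-3. Its paralogue Zhx1, the next of this family along the chromosome, is given above.

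**Figure D4:**
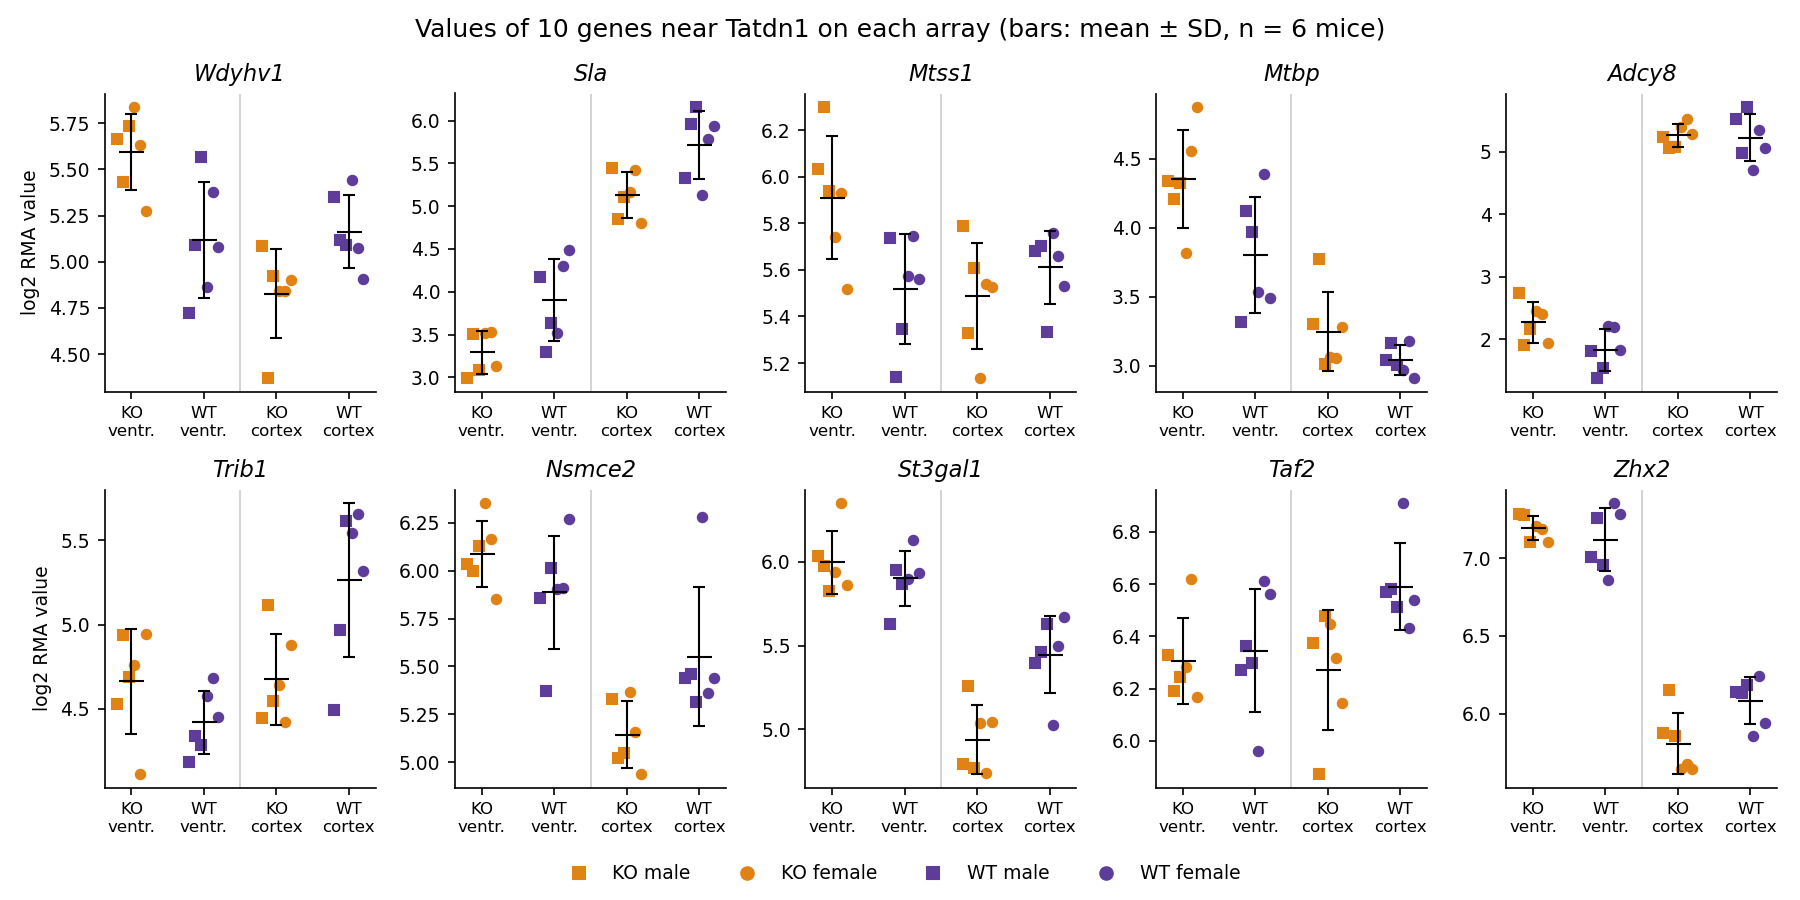
Log2 values of 10 neighbours of Tatdn1 on each array (squares, males; circles, females), for Tatdn1-/- (KO, orange) and Tatdn1+/+ (WT, purple) mice in ventricle and cortex; bars are mean ± SD, n = 6 mice. The genotypes overlap in every panel, and Wdyhv1 lies higher in KO than in WT ventricles but lower in KO than in WT cortices.

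Counts by role are given beside the share of all probe sets with an unadjusted p under 0.05, 8.46% in ventricle (5.08% higher and 3.37% lower) and 6.98% in cortex (2.39% higher and 4.59% lower). The role lists are small and were drawn up with results of these data known. Of 9 genes of growth, atrophy and stress signalling, 4 had an unadjusted p under 0.05 in ventricle, 3 higher (Wdyhv1, Mtss1, Adcy8) and 1 lower (Sla), and 3 in cortex, all lower (Trib1, Wdyhv1, Sla). Of 11 genes of chromatin, replication and transcription, 1 (9.09%) was higher in ventricle (Mtbp), against 5.08% of all probe sets, and 3 (27.3%) were lower in cortex (Taf2, Nsmce2, Zhx2), against 4.59%. The median difference of these 11 was 0.04 in ventricle and -0.23 in cortex, against 0.02 and -0.02 over all probe sets. The part of the cortex array of M78-1 in this median was not tested. Without that mouse, Zhx1 went from -0.39 to -0.14 in cortex, Taf2 from -0.32 to -0.24 and Nsmce2 from -0.41 to -0.38. Zhx2 went the other way, from -0.27 to -0.34. The 14 genes of the endoplasmic reticulum, Golgi, endosome and lipid or glycan synthesis had 1 in each tissue (Has2 lower in ventricle, St3gal1 lower in cortex), and their medians were 0.03 and 0.03.

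The 4 genes of ribosome, translation and RNA, Eif3h, Utp23, Mrpl13 and Trmt12, had none in either tissue. Utp23, a factor of ribosomal RNA processing, gave 0.20 ± 0.20 in ventricle and 0.04 ± 0.23 in cortex. Of 7 secreted or matrix genes, 1 was lower in ventricle (Has2) and none in cortex. Of the 20 neighbours in none of these groups, Aard and Macroh2a3 were higher and 4933412E24Rik lower in ventricle. The 6 genes of the gasdermin C cluster, close paralogues whose probes may share signal, had group means between 0.78 and 1.92 in ventricle and between 0.85 and 1.55 in cortex, near background, and none had an unadjusted p under 0.05 between genotypes.

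The genotype effect was then compared between tissues over all 24 arrays. No neighbour passed an adjusted p of 0.05 (limma; 0.0135% of all probe sets did), and 6 of 64 (9.38%) had an unadjusted p under 0.05, against 9.54% of all probe sets. All 6 had a higher effect in ventricle than in cortex, as had 6.31% of all probe sets, and none a lower one, as had 3.22%. For Wdyhv1 the effect in ventricle minus that in cortex was 0.82 ± 0.20 (limma, unadjusted p = 0.000445, adjusted p = 0.17), the smallest p of the 64. It was 0.83 ± 0.25 for Trib1, 0.60 ± 0.18 for St3gal1, 0.61 ± 0.22 for Nsmce2, 0.51 ± 0.19 for Mtss1 and 0.35 ± 0.16 for Zhx2, with unadjusted p-values between 0.00216 and 0.0393.

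Wdyhv1 and Sla were the only neighbours with an unadjusted p under 0.05 in both tissues (3.12%, against 0.752% of all probe sets), Wdyhv1 in opposite directions and Sla lower in both. For Tatdn1 itself the effect in ventricle minus that in cortex was -0.58 ± 0.25 (limma, unadjusted p = 0.0302, adjusted p = 0.462). Of the 64 neighbours, 25 (39.1%) were higher in Tatdn1-/- ventricles and lower in Tatdn1-/- cortices, against 30.7% of all probe sets, 12 had the opposite pattern, 13 were higher in both tissues and 14 lower in both.

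**Figure D5:**
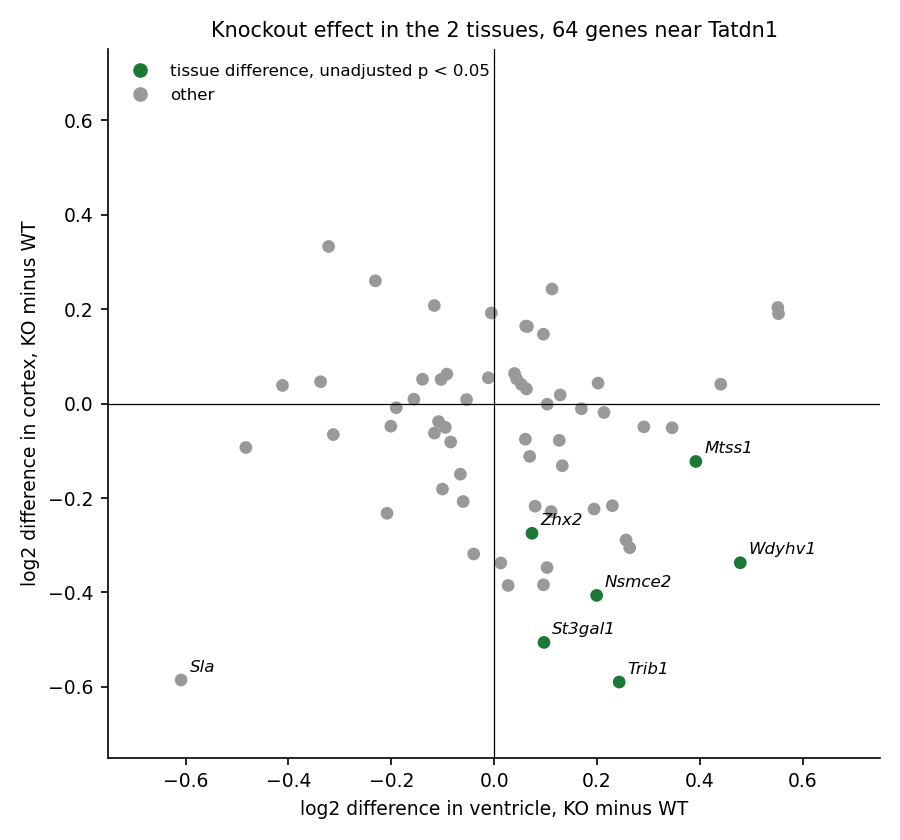
Log2 difference between Tatdn1-/- (KO) and Tatdn1+/+ (WT) mice, KO minus WT, in ventricle (horizontal axis) and cortex (vertical axis) for the 64 neighbours, each a point from 6 against 6 mice a tissue. The 6 green points have an unadjusted p under 0.05 for the difference between tissues and all lie at the lower right, and Sla lies apart at the lower left.

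Males and females gave no neighbour with an adjusted p under 0.05 for the difference of the genotype effect between sexes (0% of all probe sets passed in either tissue). At an unadjusted p under 0.05 there were 4 in ventricle (6.25%, against 5.27% of all probe sets) and 6 in cortex (9.38%, against 3.86%). The effect in males was the higher one for 2 of the 4 in ventricle (3.04% of all probe sets) and the lower one for 2 (2.22%), and in cortex it was the higher one for 1 of the 6 (1.99%) and the lower one for 5 (1.88%). The count of 6 in cortex fell to between 1 and 5 when any 1 mouse was left out, with 1 left without the Tatdn1-/- female F77-3. The smallest p was that of Fbxo32 in cortex. Its values were 4.58, 4.44 and 4.74 in Tatdn1-/- males, against 5.18, 5.23 and 4.95 in Tatdn1+/+ males, while Tatdn1-/- females read 4.80, 4.55 and 5.13, against 4.47, 4.15 and 3.89 in Tatdn1+/+ females. Each sex was thus without overlap, in opposite directions. That is 3 against 3 mice, and the share of all probe sets with such a separation was not counted. The genotype effect in males minus that in females was -1.19 ± 0.28 (limma, unadjusted p = 0.0007, adjusted p = 0.831).

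The other cortical genes were Tnfrsf11b, the decoy receptor osteoprotegerin (males minus females -0.97 ± 0.40), Deptor, an inhibitor of mTOR (-0.82 ± 0.38), Slc30a8, a zinc transporter known from pancreatic islets (-0.56 ± 0.24), Adcy8 (-0.65 ± 0.30) and Gsdmc4 (0.67 ± 0.31). Slc30a8 and Gsdmc4 lie near background in cortex. For Deptor the value without M78-1 was -0.48. In ventricle, Anxa13, a membrane-binding annexin near background here, gave -0.79 ± 0.21, with differences of -0.18 in males and 0.61 in females, and Gsdmc4 gave -1.20 ± 0.33, also near background. Atad2, a bromodomain ATPase, gave 1.19 ± 0.44 and Mtss1 0.58 ± 0.26. For Mtss1 the difference was 0.68 in males and 0.10 in females.

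The neighbours also share no tissue. Between Tatdn1+/+ ventricle and Tatdn1+/+ cortex, 34 of the 64 (53.1%) passed an adjusted p of 0.05 (limma), against 55.5% of all probe sets, with 17 higher in ventricle (29.3% of all probe sets were) and 17 lower (26.3%). At an unadjusted p under 0.05 it was 38 (59.6% of all probe sets), 21 of them higher (32.1%) and 17 lower (27.5%). Among the 40 neighbours above background in both tissues, the highest in ventricle relative to cortex was Klhl38, with 7.99 ± 0.28 in ventricle and 3.51 ± 0.36 in cortex (SD, n = 6 each), a difference of 4.48 ± 0.17 (limma, adjusted p = 8.56e-14). Fbxo32, its neighbour on the chromosome, followed with 3.35 ± 0.21, then Mrpl13, a protein of the mitochondrial ribosome, with 2.10, and the chromatin reader Phf20l1 with 1.97. Tmem71 averaged 4.38 in ventricle and was near background in cortex (1.90), so that only a bound can be given, at least 4.62-fold higher in ventricle. For such bounds each array of the dimmer tissue was set to no less than the background limit of that tissue.

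At the other end, among those above background in both tissues, Ccn3, a secreted matricellular protein, gave -4.23 and Samd12 -3.26. Mal2 was near background in ventricle, with 1.74 ± 0.41, and averaged 9.09 ± 0.24 in cortex (SD, n = 6 each), at least 125-fold lower in ventricle (limma, adjusted p = 1.64e-16). Likewise near background in ventricle were Sqle, with 1.87 against 5.86 in cortex and at least 13.1-fold lower, and Adcy8, with 1.83 against 5.22 in cortex and at least 8.49-fold lower. Of the 64 neighbours, 17 were near background in both tissues. Tatdn1 was itself higher in ventricle, by 1.08 ± 0.17, and so was Rnf139, by 1.14 ± 0.13, and Tmem65, by 1.37 ± 0.12.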

How the data were processed

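The deposited table holds log2 values, 1 column for each of 24 arrays, that the authors made with RMA (named in the submitters' processing notes, version not given), a method that subtracts background, equalises the distributions of arrays by quantiles and sums up the probes of a probe set. The arrays that entered 1 RMA run together are not stated. A supplementary table of the paper holds the authors' own fold changes and p-values, which were not used. The tests used the 22206 gene-level probe sets among 29129 entries, without the remaining 6923 (68 of them AFFX controls). Of these probe sets 19572 have 1 symbol, and all were placed through the GEO platform annotation and RefSeq genes of GRCm38; 71 RefSeq protein-coding genes start in the window and 67 of them have such a probe set. The members and lists were chosen with earlier results of these data known.

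Genotypes were compared within each tissue, 6 against 6 mice and with no other term, by lmFit and eBayes of limma 3.58.1 (R 4.3.3), two-sided, with Benjamini-Hochberg adjustment over all probe sets and a threshold of 0.05. Tissue, sex and wild-type tissue differences were fitted likewise. Exact permutation tests took all 924 splits, with a smallest possible p of 0.00216. Since replicates are separate mice, p-values measure the spread between mice, and the number of arrays limits the precision. Heart and brain arrays of a mouse share its code, which was read as the same animal. Deviations of the 2 arrays from their group means correlated by -0.08 to 0.05, and when each heart was set against all 12 brains, 0 hearts were closest to the brain of the same mouse.

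Named genes are those with an unadjusted p under 0.05 between genotypes (at most 10 each way and tissue), those within 1 Mb, the 4 with the smallest p for tissue or sex, at most 2 per role list and the 5 with the largest tissue difference each way. Outside this rule, and with their values already seen, Tg, Gsdmc4 in cortex, Adcy8 in the comparison of sexes, Asap1, Rad21, Ext1, Ndrg1 and the genes at the edges of the window are also named. Alternatives were quantile normalization, centring of arrays, removal of the 30% dimmest probe sets, sex as a term, a variance trend with a robust fit, array weights, 1 fit of 24 arrays, each sex alone, each mouse left out, the exact Wilcoxon test, windows of 5 and 20 Mb and the mouse as a block; the removal of probe sets near background was chosen after seeing the data. The pipeline was tested on simulated data. Python 3.11.15 with numpy 2.4.6, pandas 2.3.3 and matplotlib 3.10.9 served for tables and plots.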

Additional observations from a re-analysis of the deposited data

Results flagged for a closer look

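Among 56 groups of 6 arrays, those of the 14 neighbours with an unadjusted p under 0.05 between genotypes, 4 had 1 array far from the others (a gap to its nearest array above Dixon's 95% limit), where chance alone gives about 1 in 20. In cortex, Wdyhv1 read 4.37 in the Tatdn1-/- male M78-1, and the next lowest Tatdn1-/- array 4.84. Nsmce2 read 6.28 in the cortex of the Tatdn1+/+ female F76-1, and the next highest Tatdn1+/+ array 5.46. The same mouse had the highest cortical Taf2 value among Tatdn1+/+ mice, 6.91, with the next at 6.58. In ventricle, Taf2 read 6.62 in the Tatdn1-/- female F77-2, with the next Tatdn1-/- array at 6.33. The part of these arrays in the differences of Wdyhv1 and Nsmce2 is given beside those results.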

How the results depend on the processing

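No neighbour passed an adjusted p of 0.05 between genotypes, or for how that effect differed by tissue or sex, under any alternative run. The 9 neighbours with an unadjusted p under 0.05 in ventricle became 5 in males alone (7.81%, against 7.32% of all probe sets). They became 5 in females alone (7.81%, against 5.92%) and 5 with probe sets above background only (11.6%, against 9.67% of these). Fewer mice or fewer genes were tested in each case. With all mice and genes there were 6 under the variance trend with a robust fit (9.38%, against 8.58%). The exact Wilcoxon test also gave 6 (9.38%, against 7.08%), but with 2 higher and 4 lower in Tatdn1-/- mice. The 7 in cortex became 4 in males alone (6.25%, against 4.24%), 8 under the robust fit (12.5%, against 6.98%) and 9 under the Wilcoxon test (14.1%, against 6.4%). With each mouse left out in turn, the counts ran from 6 to 9 in ventricle, from 5 to 9 in cortex, from 5 to 9 for the difference between tissues, from 3 to 5 and from 1 to 5 for the difference between sexes in ventricle and cortex, and from 31 to 35 between wild-type tissues. For sex in cortex, where 6 were found, 1 was left without the Tatdn1-/- female F77-3, 2 without the Tatdn1+/+ female F76-1 and 3 without any of F77-1, F77-2, M75-2 or F76-3, each left out alone. With the mouse as a replicate block, the counts were 6 for the difference between tissues and 34 between wild-type tissues, as without it. In a window of 20 Mb, 7.21% of the neighbours in ventricle and 7.66% in cortex had an unadjusted p under 0.05, and in one of 5 Mb 15% and 12.5%. Over all probe sets the share was 8.46% in ventricle and 6.98% in cortex. The 16 values with an unadjusted p under 0.05 kept their direction under every alternative, but not all their p: of the fits run it stayed under 0.05 in 8 of 22 for Macroh2a3, 10 of 21 for Aard, 11 of 22 for Zhx2 and 13 of 22 for 4933412E24Rik, and in at least 16 for each of the others. Of 2016 values of named neighbours under alternatives, 26 moved by more than 1 SD. The transcription start in place of the lower coordinate was not run, because the strand was given for few members. Near background, 21 neighbours in ventricle and 20 in cortex, differences are limited by the low signal.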

Other observations

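Among the remaining neighbours, Asap1, a GTPase-activating protein of Arf proteins, differed in cortex by -0.23 ± 0.11 between Tatdn1-/- and Tatdn1+/+ mice (limma, unadjusted p = 0.0622; exact permutation p = 0.0325, two-sided). Samd12 differed by -0.31 in cortex, where the array of M78-1 read 5.85 and the other Tatdn1-/- arrays between 6.82 and 7.08, and by -0.12 without that mouse. Rad21, the cohesin subunit, gave 0.13 ± 0.10 in ventricle and 0.02 ± 0.12 in cortex. Ext1, a polymerase of heparan sulfate, gave 0.06 ± 0.13 in ventricle and 0.16 ± 0.15 in cortex, and Ndrg1, a hypoxia-responsive protein that is also needed by myelinating cells, -0.16 ± 0.11 in ventricle and 0.01 ± 0.12 in cortex.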
